A study of Mus musculus with 4 samples.

Results

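Immediate early genes and heat shock genes, 46 of the 55416 features counted, were taken as a list of named symbols and followed by day and by cell type, to map which cells and days carried the stress response. All 46 were found in the files by symbol. They comprise 17 immediate early transcription factors, 13 early response feedback and signalling genes, 4 growth arrest and stress recovery genes and 12 heat shock proteins and cochaperones.

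The samples were cells of the femoral epiphysis, the cartilage end of the thigh bone, of wild-type (WT) mice on postnatal days 7, 8, 10 and 12, profiled by droplet single-cell RNA sequencing with 1 library per day. The series title concerns the formation of blood stem cells from cartilage by way of endothelium. The sources used here do not say how many animals went into a library. Per the labels' protocols the tissue was digested in warmed enzyme solution and red cells were removed before capture; the digestion step names bowel tumour tissue.

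Immediate early genes are transcribed within minutes of a stimulus, without new protein synthesis, by factors such as SRF and CREB that are already in the nucleus, and most of their transcripts are short-lived. Heat shock genes are switched on by HSF1 when unfolded protein builds up, and they encode chaperones that hold or refold other proteins. Both sets are known to be induced by enzymatic digestion of tissue, and some members also act in cartilage, vessels and macrophages in the absence of stress.

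Cells were gated by lists of marker genes that hold no member, and 5 gates had at least 50 cells in every library. On days 7, 8, 10 and 12 the chondrocyte gate held 10157, 7410, 426 and 3493 cells, the endothelial gate 51, 266, 486 and 556, the fibroblast gate 104, 412, 458 and 469, the tendon or ligament gate 142, 742, 1028 and 1011 and the monocyte or macrophage gate 92, 394, 455 and 1107. Of markers kept out of the gating, 7 of 7 for chondrocytes, 7 of 7 for endothelium and 6 of 6 for monocytes or macrophages were at least 2-fold above the other cells in every library, against 4 to 6 of 6 for fibroblasts and 4 to 5 of 5 for tendon or ligament. Libraries held 44218720 to 169323978 unique molecular identifiers (UMIs), with a median of 3103, 3168, 7706 and 6564 UMIs per kept cell by day, so depth moved with age. Pairs of libraries shared 72 to 282 cell barcodes, at most 2.63% of a library. Cartilage RNA was present in all gates: chondrocyte markers kept out of the gating summed to 60341, 51469, 65712 and 85314 CPM (UMIs of a gene relative to the total UMIs of the gate) in the chondrocyte gate by day, and to 4662, 4027, 636 and 3565 CPM in the monocyte or macrophage gate. With 1 library per day no test between days is possible, and each interval is an exact Poisson 95% interval that covers counting error only.

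The promoters of 4 heat shock members that were lower on the later days, and of Dusp1, which was higher on the later days in monocytes or macrophages, are shown for the response elements they hold. Each window runs from 250 bases before to 50 after the start site, from RefSeq on GRCm38.p6, where 37 of the 46 members had a window. Capitals mark every copy of the heat shock element core, GAANNTTC or TTCNNGAA, each of which reads the same on both strands, so that overlapping copies run together. In Dusp1 they mark the cyclic AMP response element TGACGTCA.
Hspa1a: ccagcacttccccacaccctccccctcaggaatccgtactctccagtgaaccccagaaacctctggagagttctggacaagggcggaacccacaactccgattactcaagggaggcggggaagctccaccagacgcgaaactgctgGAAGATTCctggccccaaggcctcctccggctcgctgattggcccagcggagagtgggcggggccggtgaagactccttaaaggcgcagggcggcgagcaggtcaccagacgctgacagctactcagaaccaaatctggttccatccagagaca
Hspa1b: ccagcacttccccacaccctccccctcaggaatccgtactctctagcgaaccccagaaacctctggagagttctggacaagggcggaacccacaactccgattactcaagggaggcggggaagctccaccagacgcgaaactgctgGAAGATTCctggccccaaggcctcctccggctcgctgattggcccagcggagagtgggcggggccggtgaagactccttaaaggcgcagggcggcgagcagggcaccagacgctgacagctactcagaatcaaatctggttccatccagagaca
Hsph1: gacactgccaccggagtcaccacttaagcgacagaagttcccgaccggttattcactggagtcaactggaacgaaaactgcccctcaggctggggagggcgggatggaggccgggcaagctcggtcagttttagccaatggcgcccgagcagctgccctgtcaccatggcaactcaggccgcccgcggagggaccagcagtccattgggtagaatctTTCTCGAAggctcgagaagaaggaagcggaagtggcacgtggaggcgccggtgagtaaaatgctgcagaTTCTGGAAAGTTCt
Hspe1: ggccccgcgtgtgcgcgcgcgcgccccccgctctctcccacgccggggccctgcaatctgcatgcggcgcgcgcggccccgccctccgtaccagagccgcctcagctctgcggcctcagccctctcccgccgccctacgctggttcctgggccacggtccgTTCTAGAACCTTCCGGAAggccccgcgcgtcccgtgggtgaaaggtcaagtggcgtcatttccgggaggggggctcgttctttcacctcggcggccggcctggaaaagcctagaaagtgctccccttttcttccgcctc
Dusp1: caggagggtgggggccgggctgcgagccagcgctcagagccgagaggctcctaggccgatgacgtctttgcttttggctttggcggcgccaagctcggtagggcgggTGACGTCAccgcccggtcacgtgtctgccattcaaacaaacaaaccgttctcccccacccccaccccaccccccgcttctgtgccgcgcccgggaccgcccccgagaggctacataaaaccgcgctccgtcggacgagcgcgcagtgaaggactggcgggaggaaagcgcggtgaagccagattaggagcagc

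The windows lie at chr17:34972107-34972406 (Hspa1a), chr17:34959189-34959488 (Hspa1b), chr5:149636287-149636586 (Hsph1) and chr17:26508423-26508722 (Dusp1) on the minus strand and at chr1:55087898-55088197 (Hspe1) on the plus strand. The Hspa1a and Hspa1b windows differ at 4 of 300 positions, and each holds 1 core that starts 104 bases before the start site. These genes are near-identical copies whose reads the authors' counting could split, so the share of each is uncertain. Hsph1 and Hspe1 hold 3 cores each, some of them overlapping. The core was found in 7 of the 9 heat shock members with a window (Hspa1a, Hspa1b, Hspb1, Dnaja1, Hsph1, Hspe1 and Hspd1) and in 4 of the 28 other members (Fosl2, Jun, Egr2 and Rcan1), and in 15.1% of all 32851 windows. The cyclic AMP response element was found in Btg2, Dusp1, Errfi1, Rcan1 and Ppp1r15a and in 1.79% of all windows. The CArG box, to which SRF binds, was found in Egr2 and Zfp36 and in 1.63% of all windows. A member was counted if any of its windows held the element, with 48 windows for 37 members. The percentages of all windows are shares of single windows, not of genes. These are matches of letters, not measured binding.

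Transcripts of the 46 members made up 2.63%, 2.84%, 1.37% and 1.24% of the UMIs of chondrocytes on days 7, 8, 10 and 12. They made up 1.85%, 2.19%, 1.38% and 0.899% in endothelial cells, 1.85%, 2.28%, 1.36% and 0.781% in fibroblasts and 1.78%, 2.54%, 1.05% and 0.622% in tendon or ligament cells. In these 4 gates the share was highest on day 8 and lowest on day 12. Monocytes or macrophages held 1.58%, 1.95%, 1.96% and 1.43%, with days 8 and 10 nearly level. As a mean over cells day 8 was the highest in that gate too, with a sum of 21634 CPM.

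The inducible HSP70 genes Hspa1a and Hspa1b differed most between days 12 and 7 in all 5 gates, with Fosl1 between them in chondrocytes. Hspa1a was at 269, 451, 16.6 and 19.9 CPM in chondrocytes on days 7, 8, 10 and 12. It was at 661, 870, 9.21 and 11.4 CPM in endothelial cells and at 660, 1116, 26.5 and 11.5 CPM in fibroblasts. Days 7 and 8 were thus high and days 10 and 12 low in each of these gates, with no overlap. Tendon or ligament cells had 386, 990, 7.92 and 15.1 CPM and monocytes or macrophages had 594, 1193, 32.7 and 22.8 CPM. Hspa1a was 13.5-fold to 57.6-fold lower on day 12 than on day 7, the smallest of these in chondrocytes, and 27-fold to 124-fold lower on day 10 than on day 8. On days 7 and 8 chondrocytes had the lowest Hspa1a level of the 5 gates.

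Hspa1b, the neighbouring HSP70 gene, followed the same course. It was at 220, 384, 3.98 and 10.9 CPM in chondrocytes, where the day-10 value rests on 31 UMIs (interval 2.7 to 5.65 CPM). It was at 582, 870, 11.7 and 6.42 CPM in endothelial cells and at 419, 971, 8.86 and 7.95 CPM in monocytes or macrophages. Early and late libraries did not overlap in any of the 5 gates, and day 12 was 20.1-fold to 88.8-fold below day 7.

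**Figure D1:**
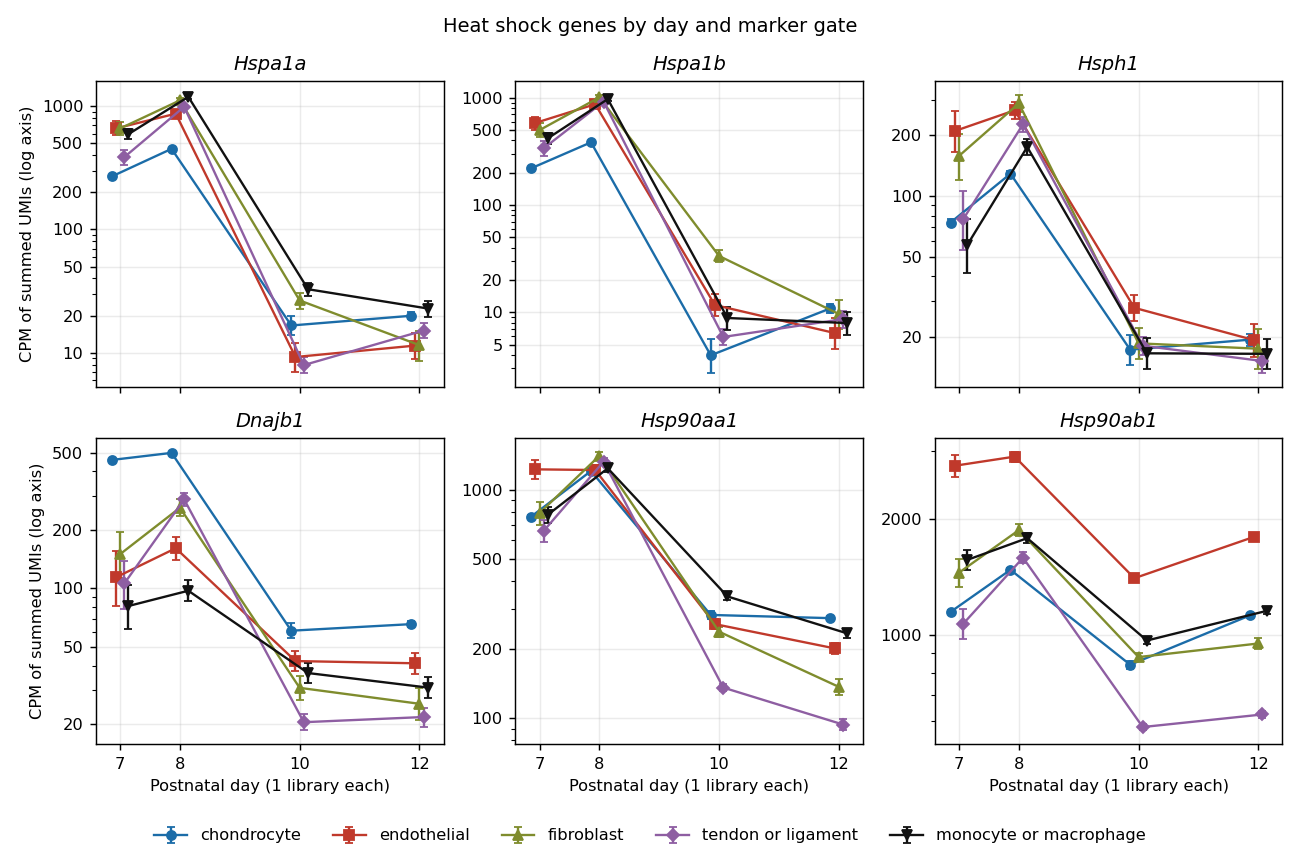
CPM of 6 heat shock members (log axis) by postnatal day in the 5 gates, each point the summed UMIs of a gate in 1 library with its exact Poisson 95% interval. Hspa1a in chondrocytes sits at 269, 451, 16.6 and 19.9 CPM over the 4 days, and it is high on days 7 and 8 and low on days 10 and 12 in every gate.

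Chaperones that work with HSP70 and HSP90 differed the same way. Hsph1, an HSP110 that recharges HSP70 with nucleotide, was at 73.9, 129, 17.3 and 19.4 CPM in chondrocytes and at 210, 266, 27.9 and 19.3 CPM in endothelial cells, with a log2 ratio of day 12 to day 7 of -3.18 in fibroblasts. Dnajb1, an HSP40 that brings clients to HSP70, was at 458, 498, 60.6 and 65.5 CPM in chondrocytes, the highest of the 5 gates in each library, and at 81.2, 97.3, 36.7 and 30.9 CPM in monocytes or macrophages. Both genes were at least 2-fold lower on day 12 than on day 7, and on day 10 than on day 8, in all 5 gates. Dnaja1, another HSP40, was 2.41-fold to 4.9-fold lower on day 12 than on day 7. Hsp90aa1, the inducible HSP90, was at 763, 1209, 283 and 274 CPM in chondrocytes and 2.78-fold to 7.08-fold lower on day 12 over the 5 gates. Hspb1, a small heat shock protein, was at 53.8, 136, 42.5 and 27.4 CPM in chondrocytes and at 121, 385, 34.4 and 17.7 CPM in fibroblasts, so that day 8 stood above the other days in both.

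The constitutive and organelle chaperones differed in their course. Hsp90ab1, the constitutive HSP90, was at 1149, 1476, 839 and 1125 CPM in chondrocytes and stayed within 2-fold between days 12 and 7 in all 5 gates. Hspd1, the mitochondrial HSP60, was at 141, 172, 124 and 212 CPM in chondrocytes and also stayed within 2-fold. Its partner Hspe1, HSP10, had a log2 ratio of day 12 to day 7 of -0.86 in chondrocytes and from -1.38 to -1.54 in the other gates. Hspa5, the endoplasmic reticulum chaperone BiP, was lower on day 12 in endothelial cells (-1.07) and monocytes or macrophages (-1.41), with -0.19 in chondrocytes. Hspa8, the constitutive HSP70, was lower on day 12 than on day 7 in all 5 gates, from -1.05 in endothelial cells to -1.45 in tendon or ligament cells. The other pair of libraries, days 10 and 8, gave another order. There Hsp90ab1, Hspd1 and Hspa5 were at least 2-fold lower on day 10 in 3 of the 5 gates each, Hspe1 in 5 and Hspa8 in 1.

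Fos had lower levels on day 12 than on day 7 in 4 gates and a higher level in monocytes or macrophages. Fos, which forms AP-1 with Jun proteins, was at 1354, 1552, 4458 and 3128 CPM in monocytes or macrophages on days 7, 8, 10 and 12. It was at 5001, 5384, 3870 and 2714 CPM in chondrocytes and at 3968, 4769, 3703 and 1244 CPM in tendon or ligament cells. The late libraries lay above the early ones in monocytes or macrophages and below them in the other 2 gates. Fos was at 1714, 1953, 2482 and 844 CPM in endothelial cells and 3125, 2730, 3676 and 1227 CPM in fibroblasts, where day 10 was highest and day 12 lowest. Day 12 was 2.31-fold above day 7 in monocytes or macrophages and 3.19-fold below it in tendon or ligament cells.

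The other AP-1 members followed Fos in part. Jun was at 1194, 1399, 653 and 591 CPM in chondrocytes and at 594, 541, 697 and 488 CPM in monocytes or macrophages, and day 12 was at least 2-fold below day 7 in all gates but monocytes or macrophages (-0.29 on the log2 scale). Junb was lower in chondrocytes (-1.76), fibroblasts (-1.46) and tendon or ligament cells (-2.10), whereas Jund and Fosl2 stayed within 2-fold between days 12 and 7 in all 5 gates. Fosl2 was at least 2-fold lower on day 10 than on day 8 in 2 gates. Fosl1, which encodes FRA1, was at 44.6, 43.2, 5.91 and 3.2 CPM in chondrocytes, 13.8-fold lower on day 12 than on day 7. In fibroblasts and tendon or ligament cells Fosl1 had fewer than 20 UMIs over those days, and on day 7 it was at 0 UMIs in tendon or ligament cells, which allows up to 6.22 CPM. Fosb was lower in tendon or ligament cells (-1.18) and higher in monocytes or macrophages (1.17).

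Atf3, a stress-induced factor of the ATF family, was lower on day 12 than on day 7 in all 5 gates. It was at 705, 657, 182 and 134 CPM in chondrocytes and at 483, 708, 139 and 31.4 CPM in tendon or ligament cells, where day 12 was 5.25-fold and 15.4-fold below day 7, and its log2 ratio was -3.79 in endothelial cells and -3.65 in fibroblasts. In monocytes or macrophages it was at 477, 614, 501 and 173 CPM, so that day 10 lay within the early range and day 12 below it.

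Zinc-finger and nuclear receptor genes were mixed. Egr1, a growth factor-induced factor, was at 1900, 1803, 884 and 819 CPM in chondrocytes and at 462, 449, 600 and 275 CPM in monocytes or macrophages. Egr2 was at 107, 137, 20.8 and 48.9 CPM in chondrocytes and at 47.7, 65.4, 2.26 and 5.39 CPM in tendon or ligament cells, 9.12-fold lower on day 12 than on day 7 in tendon or ligament cells. Nr4a1, an orphan nuclear receptor, was lower in chondrocytes (-1.52), fibroblasts (-1.65) and tendon or ligament cells (-1.16). The Klf factors split by cell: Klf4 was at 149, 156, 521 and 266 CPM in monocytes or macrophages and at 598, 664, 373 and 366 CPM in chondrocytes, and Klf2, known for quiescence of endothelium, was at 181, 225, 480 and 393 CPM in monocytes or macrophages and at 1178, 1278, 483 and 587 CPM in chondrocytes. Both were higher on the later days in monocytes or macrophages and lower in chondrocytes. Klf6 stayed within 2-fold between days 12 and 7 in all 5 gates.

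**Figure D2:**
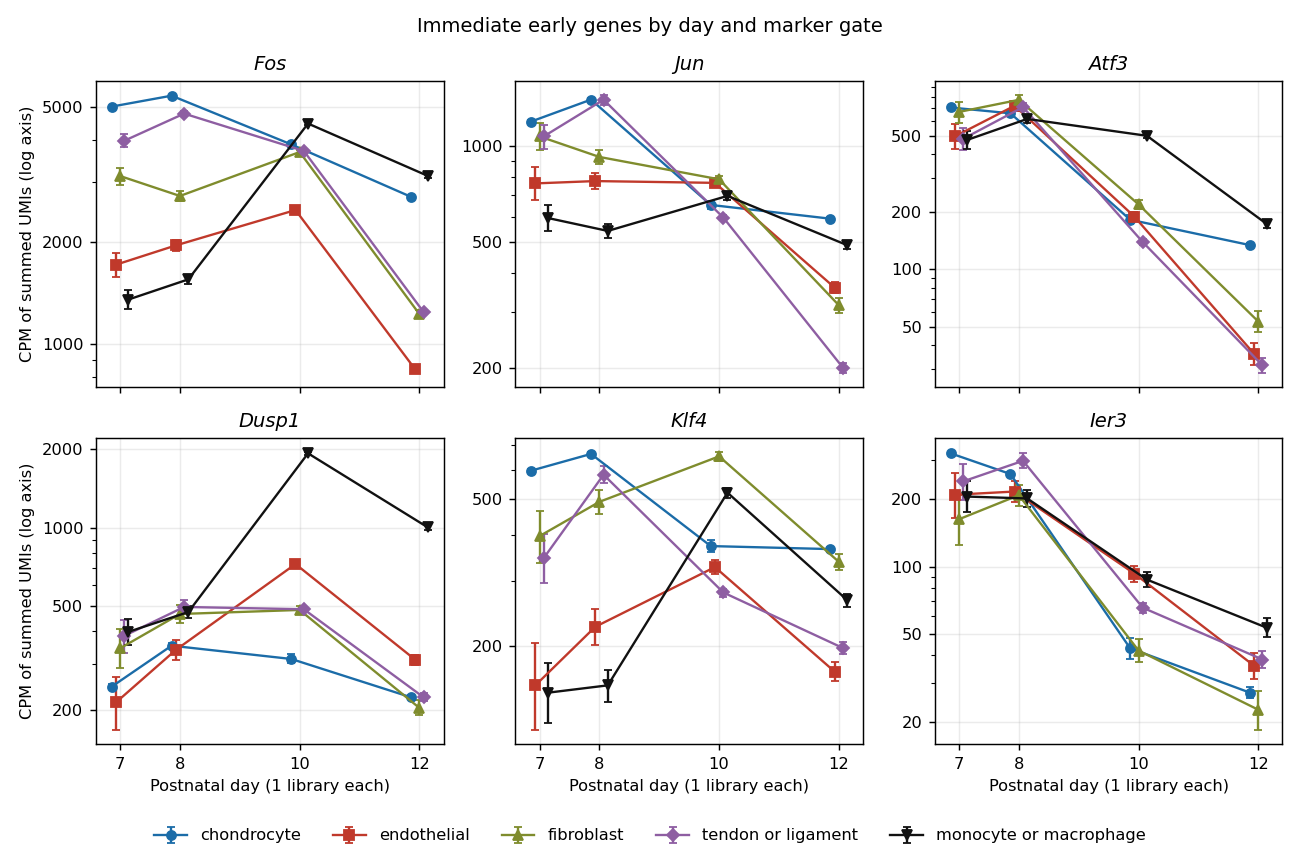
CPM of 6 immediate early members (log axis) by postnatal day in the 5 gates, with exact Poisson 95% intervals. Ier3 and Atf3 are lower on day 12 than on day 7 in every gate, and Fos stands at 1354, 1552, 4458 and 3128 CPM over the 4 days in the monocyte or macrophage gate, against 5001, 5384, 3870 and 2714 CPM in chondrocytes.

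Cebpb, a regulator of myeloid and inflammatory genes, was at 542, 487, 457 and 663 CPM in monocytes or macrophages and at 143, 115, 39.7 and 52.6 CPM in chondrocytes. In endothelial cells it was at 14.2, 49.6, 73.2 and 96 CPM, but the day-7 value is 5 UMIs (interval 4.61 to 33.1 CPM). Its relative Cebpd was lower on day 12 than on day 7 by 2.94-fold in chondrocytes, 3.01-fold in endothelial cells and 3.99-fold in tendon or ligament cells, and 2.1-fold higher in monocytes or macrophages. Myc, a regulator of growth, was at 17.3, 11.7, 28.8 and 39 CPM in monocytes or macrophages and at 27, 29.2, 12.5 and 9.07 CPM in tendon or ligament cells, opposite in order.

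Feedback genes that restrain receptor and calcineurin signals were among the most different in cartilage. Ier3, an early response gene linked to survival, was at 322, 260, 43 and 27.2 CPM in chondrocytes on days 7, 8, 10 and 12, 11.8-fold lower on day 12 than on day 7. Errfi1, an inhibitor of the epidermal growth factor receptor, was at 832, 667, 89.5 and 87.7 CPM in chondrocytes, 9.48-fold lower. Rcan1, an inhibitor of calcineurin, was at 374, 258, 26.2 and 29.3 CPM in chondrocytes, 12.8-fold lower. Early and late libraries did not overlap for these in chondrocytes, and the 3 genes were also at least 2-fold lower on day 12 in the other 4 gates, Ier3 by -2.85 in fibroblasts and -1.96 in monocytes or macrophages on the log2 scale.

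Dusp1, a phosphatase that switches off p38 and JNK, did not share that course. It was at 398, 474, 1931 and 1003 CPM in monocytes or macrophages, 2.51-fold higher on day 12 than on day 7 and 4.07-fold higher on day 10 than on day 8. In chondrocytes it was at 245, 352, 313 and 223 CPM, with early and late days overlapping. Zfp36, which shortens the life of cytokine mRNAs, and Btg2, an antiproliferative gene, were lower on day 12 in 4 gates and had ratios of 0.26 and 0.33 in monocytes or macrophages. Nfkbia, the inhibitor of NF-kB, was lower in chondrocytes (-1.24), endothelial cells (-1.88) and fibroblasts (-1.68), and Socs3, an inhibitor of cytokine signals, in endothelial cells (-2.52), fibroblasts (-2.15) and tendon or ligament cells (-1.78). Phlda1 was lower in all gates but the endothelial one (-0.70), and Ier2 was lower in chondrocytes (-1.37), fibroblasts (-1.56) and tendon or ligament cells (-1.32). Ier5, Mcl1, an antiapoptotic relative of BCL2, and Rhob, a small GTPase, stayed within 2-fold between days 12 and 7 in all 5 gates. Ier5 was at least 2-fold lower on day 10 than on day 8 in 2 gates.

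The growth arrest genes split by member. Gadd45b, a stress sensor of the Gadd45 family, was lower on day 12 in all 5 gates, from -1.82 in fibroblasts to -2.12 in endothelial cells. Gadd45g was at 177, 180, 43.7 and 34.7 CPM in chondrocytes and at 139, 204, 17.2 and 15.6 CPM in tendon or ligament cells, and was lower in all gates (endothelial cells -3.06) but monocytes or macrophages (-0.28). Gadd45a reached 2-fold in chondrocytes alone (-1.44), and Ppp1r15a, which lets translation resume after stress, in endothelial cells alone (-1.13).

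Over the list, 28 of 46 members were at least 2-fold lower and 0 higher on day 12 than on day 7 in chondrocytes, where 20.3% of all genes were lower and 16.7% higher. Endothelial cells had 27 lower and 2 higher (9.57% and 18.4% of all genes), and fibroblasts 28 and 0 of 45 (8.8% and 15.2%). Tendon or ligament cells had 30 lower and 0 higher of 45 (20.5% and 7.07%). Monocytes or macrophages had 16 lower and 6 higher (8.17% and 19.5%), and with TMM scaling 17 were lower and 3 higher. In these gates the median log2 ratio of the members was -1.24, -1.08, -1.33, -1.67 and -0.28, against 0.16, 0.21, 0.18, -0.26 and 0.24 over all genes. TMM moved the median of all genes most in tendon or ligament cells, to 0.06.

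By role, 7 of 12 heat shock members were lower in chondrocytes, 10 in endothelial cells and 9 in each of the other 3 gates, with none higher in any. Of the immediate early factors 10, 7, 8, 11 and 2 were lower in the order chondrocyte, endothelial, fibroblast, tendon or ligament, and monocyte or macrophage, and 5 were higher in monocytes or macrophages. Of all genes 20.3%, 9.57%, 8.8%, 20.5% and 8.17% were lower in that order of gates, and 19.5% were higher in monocytes or macrophages. Whether gates differ in the counts by role was not tested. The members at least 2-fold higher on day 12 in monocytes or macrophages were Fos, Fosb, Klf2, Cebpd, Myc and Dusp1. These 6 of 46 are a share below that of all genes.

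Day 10 against day 8, the other pair of libraries, gave 29 lower and 0 higher in chondrocytes (16.3% and 10.8% of all genes) and 19 and 2 in endothelial cells (6.09% and 15.2%). It gave 23 and 0 in fibroblasts (9.32% and 9.83%), 35 and 0 in tendon or ligament cells (15.6% and 5.58%) and 16 and 8 in monocytes or macrophages (7.51% and 15.8%). In monocytes or macrophages Klf4 and Socs3 joined the 6 genes higher on day 12. The members lower in all 5 gates were 9 for days 10 and 8 (Ier3, Gadd45g, Hspa1a, Hspa1b, Hsp90aa1, Hspb1, Dnajb1, Hsph1 and Hspe1) and 12 for days 12 and 7 (Atf3, Ier3, Errfi1, Rcan1, Gadd45b, Hspa1a, Hspa1b, Hspa8, Hsp90aa1, Dnajb1, Dnaja1 and Hsph1). No member was higher in all 5. The share of all genes lower in all 5 gates is not given here, so these counts stand without a background.

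**Figure D3:**
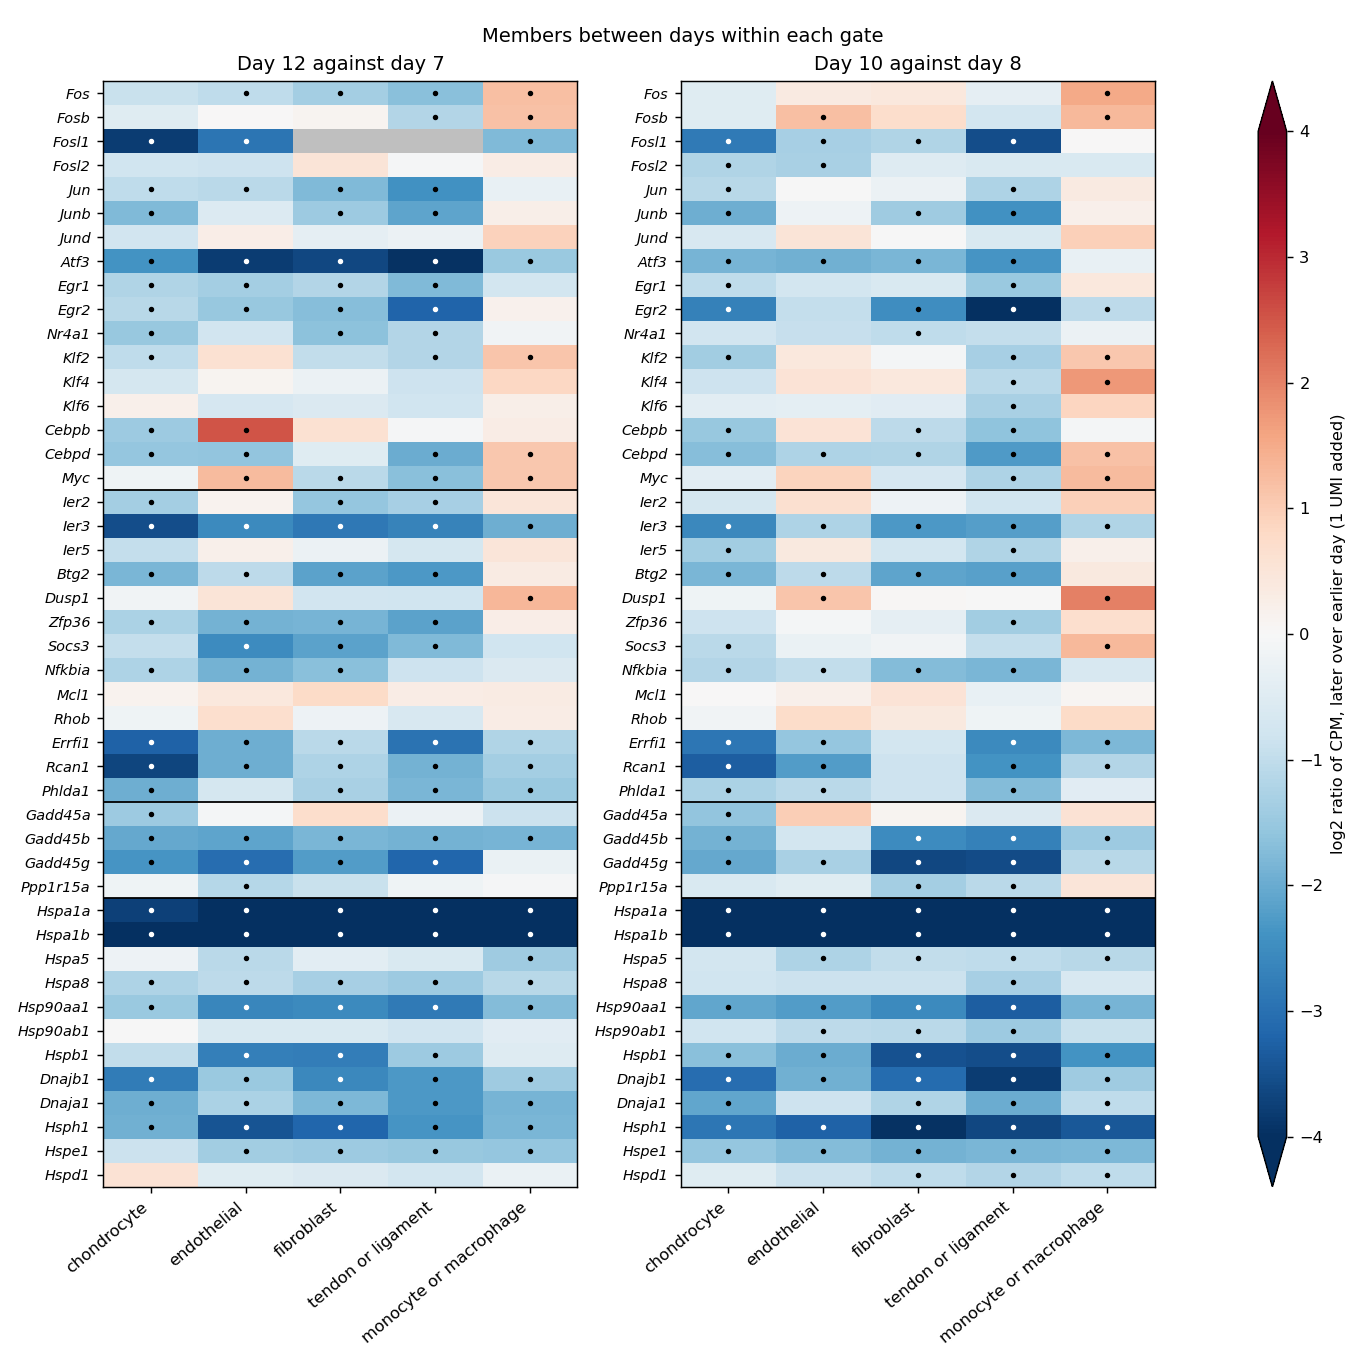
Log2 ratio of CPM for the 46 members in the 5 gates, day 12 against day 7 and day 10 against day 8, with dots at ratios of at least 2-fold and grey where a member had fewer than 20 UMIs. Most squares are on the side of lower values on the later day. On day 12 against day 7, 28 members are lower in chondrocytes (20.3% of all genes). In monocytes or macrophages 6 and 8 members are higher, below or near the 19.5% and 15.8% of all genes.

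Day 8 against day 7 and day 12 against day 10 gave fewer members past 2-fold in each gate than the pairs above. Days 12 and 10 stand as far apart in age as days 10 and 8. With 1 library per day, age and library cannot be told apart here. Day 8 against day 7 gave 1 member higher in chondrocytes, Hspb1, and 0 lower (4.41% and 2.06% of all genes), and 7 higher with 0 lower in tendon or ligament cells (3.27% and 3.99%), namely Fosl1, Hspa1a, Hspa1b, Hsp90aa1, Hspb1, Dnajb1 and Hsph1. It gave 3 higher in endothelial cells, Nr4a1, Cebpb and Phlda1, with 0 lower (3.78% and 3.95%), and 3 in fibroblasts, Gadd45g, Hspa1b and Hspb1, with 0 lower (4.92% and 3.42%). In monocytes or macrophages 5 were higher, Egr2, Hspa1a, Hspa1b, Hspb1 and Hsph1 (3.54%), and Gadd45a was lower (3.28% of all genes). Heat shock members were among those called in 4 of the gates. In chondrocytes the share of members called higher was below that of all genes, and in fibroblasts it was near it. Day 12 against day 10 gave 12 lower and 0 higher in endothelial cells (5.47% and 3.12%), 13 lower with Cebpb higher in fibroblasts (3.29% and 5.37%), 8 lower with Egr2 and Cebpb higher in tendon or ligament cells (4.39% and 4.6%) and 4 lower and 0 higher in monocytes or macrophages (4.94% and 4.23%). In chondrocytes Egr2 and Hspa1b were higher and 0 members lower (4.5% and 6.97%).

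The monocyte or macrophage gate changed in makeup over these days. Cells with transcripts of at least 2 of the 3 C1q complement genes, which macrophages express, made up 82.6%, 86.3%, 65.9% and 49.9% of it on days 7, 8, 10 and 12, a split added after the data were seen. Within these cells Fos was at 1312, 1530, 4254 and 2354 CPM, Dusp1 at 369, 461, 1730 and 642 CPM and Hspa1a at 635, 1179, 36 and 23.8 CPM. Days 10 and 12 were thus above days 7 and 8 for Fos and Dusp1 within the subset too. In the subset 1 member was at least 2-fold higher on day 12 than on day 7, compared with 6 in the whole gate. In the cells without C1q Fos was at 1714, 1853, 5454 and 4650 CPM, from 16, 54, 155 and 555 cells. Ccr2, a marker of monocytes from blood, was at 76.8, 339, 1160 and 1489 CPM in them.

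Gates with too few cells in some library were read for single members. Hspa1a was at 1450, 3.48 and 18.5 CPM in osteoclasts, 1626, 19.8 and 4.56 CPM in osteoblast lineage cells and 1049, 62 and 27.3 CPM in mural cells on days 8, 10 and 12. Day 8 was the highest in each. On days 12 and 10 Hspa1a was at 3.16 and 1.42 CPM in erythroid cells, 3.38 and 3.8 CPM in B lineage cells and 6.1 and 2.28 CPM in neutrophils, below the 5 main gates on both days. Fos in osteoclasts was at 931, 3797 and 1861 CPM on days 8, 10 and 12, with the late days above day 8 as in monocytes or macrophages. Ier3 on day 12 was at 384 CPM in 50 mast cells or basophils, and Myc was at 152 and 123 CPM on days 12 and 10 in stem or progenitor cells, each the highest of the gates read on those days.

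Within the chondrocyte gate, zones set by their own markers differed in level. Hspa1a was at 522, 599 and 11.6 CPM in hypertrophic cartilage on days 7, 8 and 12 and at 253, 480 and 22.5 CPM in resting-zone cartilage. On days 7, 8, 10 and 12 it was at 157, 224, 14.2 and 9.8 CPM in prehypertrophic and 347, 514, 11.5 and 40.2 CPM in articular cartilage. Every zone read had its higher values on days 7 and 8. Ier3 was at 627, 479, 70.4 and 47.5 CPM in articular cartilage, the highest zone on each day, against 106, 114, 23 and 17.1 CPM in prehypertrophic cartilage. Fos in articular cartilage was at 3887, 4233, 5308 and 2738 CPM, highest on day 10 in 82 cells, unlike its course in the whole gate. Gadd45g was highest in hypertrophic cartilage on days 8 and 7, at 226 and 576 CPM, and Hsp90aa1 in dividing chondrocytes, at 2000 and 1408 CPM.

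To set depth aside, cells were thinned to 1000 UMIs each. A UMI of Hspa1a was then found in 18.7%, 25.6%, 0.939% and 2.09% of chondrocytes and in 27.2%, 45.2%, 3.3% and 1.9% of monocytes or macrophages on days 7, 8, 10 and 12. A UMI of Fos was found in 89.2%, 91.1%, 79.6% and 71.1% of chondrocytes and in 70.7%, 69.3%, 82.2% and 84.3% of monocytes or macrophages. The order of early and late days was that of the CPM in both gates, while without thinning Fos was found in 97.2% and 98.4% of chondrocytes on days 10 and 8. Either Hspa1 gene was found with Fos or Fosb in 27.2%, 37.3%, 1.17% and 2.86% of chondrocytes. The median chondrocyte had a UMI of 13, 14, 7 and 7 of the 46 members.

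Blood cells give the level of such shares outside the skeletal gates. Hemoglobin genes took 269730, 246477, 373476 and 243348 CPM of the erythroid gate by day, so fewer of its thinned UMIs were of other genes. Erythroid cells had a UMI of Hspa1a in 5%, 33.3%, 0.16% and 0.407% of cells and of Fos in 60%, 47.2%, 25.8% and 26.1% after thinning, from 20 and 36 cells on days 7 and 8 and 1873 and 982 on days 10 and 12. Their median depth before thinning was 3216, 4248, 7674 and 4197 UMIs, against 3096, 3258, 16157 and 9271 in chondrocytes. On day 8 the Hspa1a share of 4 of the 5 gates lay within the interval of the 36 erythroid cells (18.6% to 51%), so free RNA in the droplets and expression in the cells cannot be told apart for it on that day. The fibroblast share, 51.9%, lay just above that interval. A UMI of Hspa1a or Hspa1b was in 30%, 47.2%, 0.32% and 0.509% of erythroid cells, against 29.1%, 39.9%, 1.41% and 3.26% of chondrocytes. On day 8 it was in 50% of 28 B lineage cells. On day 7 the pair was in 43.1% of endothelial cells, 51.9% of fibroblasts, 31.7% of tendon or ligament cells and 40.2% of monocytes or macrophages. With 20 erythroid cells on day 7, free RNA and expression cannot be told apart for the pair in any of the 5 gates. The erythroid share was also far lower on days 10 and 12, as in the 5 gates, and the part of free RNA in the differences between days was not tested.

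**Figure D4:**
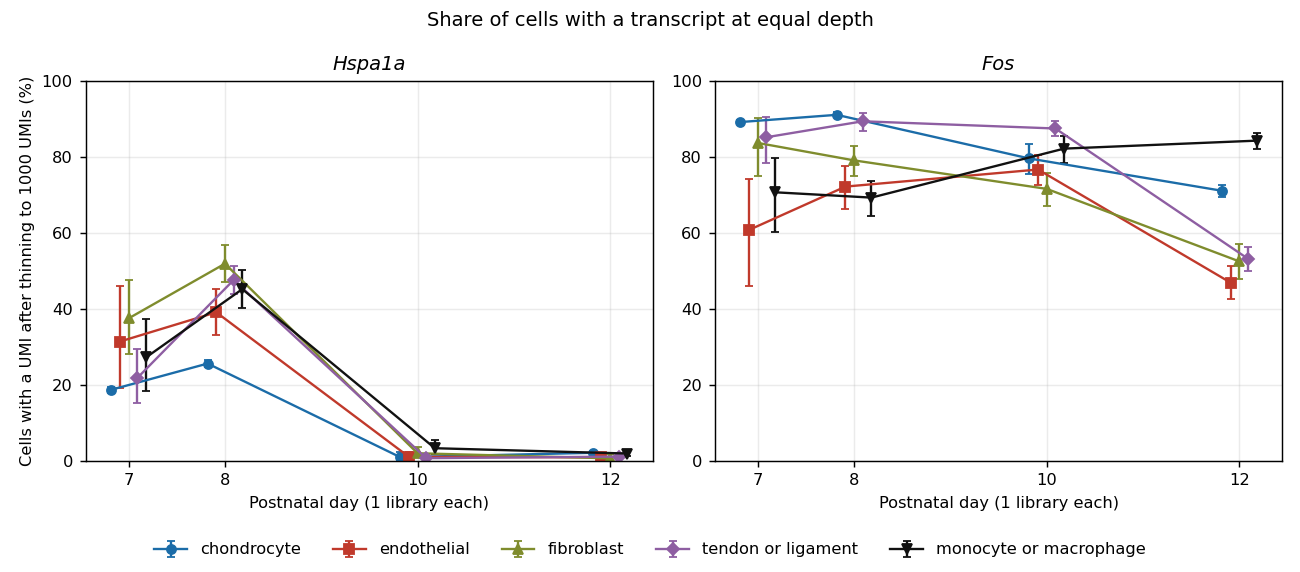
Percentage of cells with a UMI of Hspa1a (left) and Fos (right) after thinning each cell to 1000 UMIs, by postnatal day and gate, with exact Clopper-Pearson 95% intervals. Hspa1a is in 0.939% of chondrocytes on day 10 and 25.6% on day 8, while Fos stays in 46.9% or more of the cells of each of the 5 gates.

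Between gates, each was tested against the mean of the other 4 with library as a block (edgeR quasi-likelihood test, Benjamini-Hochberg over 15835 genes). With the block, the p-values measure only how far the differences between gates vary over these 4 libraries, which differ in age. Chondrocytes had 23 higher and 3 lower members at an adjusted p of 0.05, where 28.9% and 26.5% of all genes were called. Monocytes or macrophages had 17 higher and 9 lower (34.9% and 27.2%) and endothelial cells 8 higher and 10 lower (23.6% and 20.8%). Fibroblasts had 2 higher and 14 lower (16.4% and 23.5%) and tendon or ligament cells 2 higher and 13 lower (18.8% and 23.2%). Without TMM the counts were 18 higher and 7 lower in chondrocytes, 11 higher and 8 lower in endothelial cells and 4 higher and 7 lower in fibroblasts. Without the library block they were 19 higher and 2 lower in chondrocytes, 9 higher and 4 lower in monocytes or macrophages, 3 higher and 5 lower in endothelial cells, 0 higher and 2 lower in fibroblasts and 1 higher and 4 lower in tendon or ligament cells. Leaving out day 10 gave 11 higher in monocytes or macrophages, 5 higher in endothelial cells and 0 higher and 9 lower in fibroblasts, and leaving out day 12 gave 16 lower in monocytes or macrophages, 4 higher in tendon or ligament cells and 8 lower in fibroblasts. Without day 7 fibroblasts had 9 lower, and without day 8 tendon or ligament cells had 1 higher.

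Among the 5 gates tested, chondrocytes led for several early genes. Phlda1 was at 1037, 1012, 423 and 268 CPM in chondrocytes, against 347, 531, 299 and 141 CPM in fibroblasts, the next highest gate in each library (log2 fold change 1.90, adjusted p = 8.75e-10). Fosb (1.68, adjusted p = 2.4e-06) and Ier2 (1.64, adjusted p = 2.46e-06) were also highest in chondrocytes in all 4 libraries. Egr2 was higher over the libraries together (2.13, adjusted p = 8.38e-06), although on day 10 it was at 20.8 CPM in chondrocytes, against 30.5 CPM in monocytes or macrophages. Fosl1 completed the 5 largest (1.93, adjusted p = 4.64e-05). Outside the 5 gates tested, neutrophils had 59.3 and 55.9 CPM of Fosl1 on days 10 and 12, above chondrocytes on those days.

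Endothelial cells and monocytes or macrophages stood at opposite ends for Hspb1, which was at 477, 655, 165 and 71.6 CPM in endothelial cells and at 5.33, 33.3, 6.29 and 4.53 CPM in monocytes or macrophages. It was higher in endothelium (2.66, adjusted p = 2.16e-09) and lower in monocytes or macrophages (-2.92, adjusted p = 7.82e-08), the highest and the lowest gate in each library. Endothelial cells were lower for Gadd45b (-1.30, adjusted p = 5.04e-05), Fos (-1.13, adjusted p = 0.00274), Egr1 (-1.11, adjusted p = 4.84e-05) and Egr2 (-1.56, adjusted p = 0.00783), and the Egr2 call was lost without day 12 (-1.36). Without the library block the Egr2 (-2.04) and Gadd45b (-1.59) calls of endothelial cells were lost. Monocytes or macrophages were higher for Cebpb (3.14, adjusted p = 9.81e-10), Mcl1 (1.65, adjusted p = 8.03e-12), Nfkbia (1.43, adjusted p = 3.16e-07) and Klf6 (1.38, adjusted p = 4.39e-07). Mcl1 was at 417, 502, 528 and 528 CPM in them, against 134, 126, 127 and 147 CPM in chondrocytes.

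In fibroblasts and tendon or ligament cells the share of members called lower, 14 and 13 of 46, was near that of all genes. So were the shares called higher in monocytes or macrophages, 17 of 46, and lower in endothelial cells, 10 of 46. The shares called higher in endothelial cells, 8 of 46, and lower in monocytes or macrophages, 9 of 46, were below those of all genes. Tendon or ligament cells were lower for Cebpb (-1.39, adjusted p = 0.00225), Nfkbia (-0.84, adjusted p = 0.00168), Hspd1 (-0.71, adjusted p = 0.000223) and Klf6 (-0.70, adjusted p = 0.00542) and higher for Jund (0.68, adjusted p = 0.00531). The Klf6 call was lost without day 12 (-0.59), and the Nfkbia (-0.88) and Klf6 (-0.66) calls without the library block. Fibroblasts were lower for Ier5 (-0.98, adjusted p = 0.00227), Cebpb (-0.95, adjusted p = 0.0244), Gadd45b (-0.83, adjusted p = 0.00361) and Ier3 (-0.78, adjusted p = 0.0066) and higher for Rcan1 (0.75, adjusted p = 0.0484). The Rcan1 call was lost without day 10 (0.37) or day 12 (0.78), and the Cebpb call without day 8 (-0.90), day 10 (-0.85) or day 12 (-0.93) or without TMM (-0.74). The Cebpb (-0.93), Gadd45b (-0.70), Ier3 (-0.64) and Rcan1 (0.41) calls of fibroblasts were lost without the library block.

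**Figure D5:**
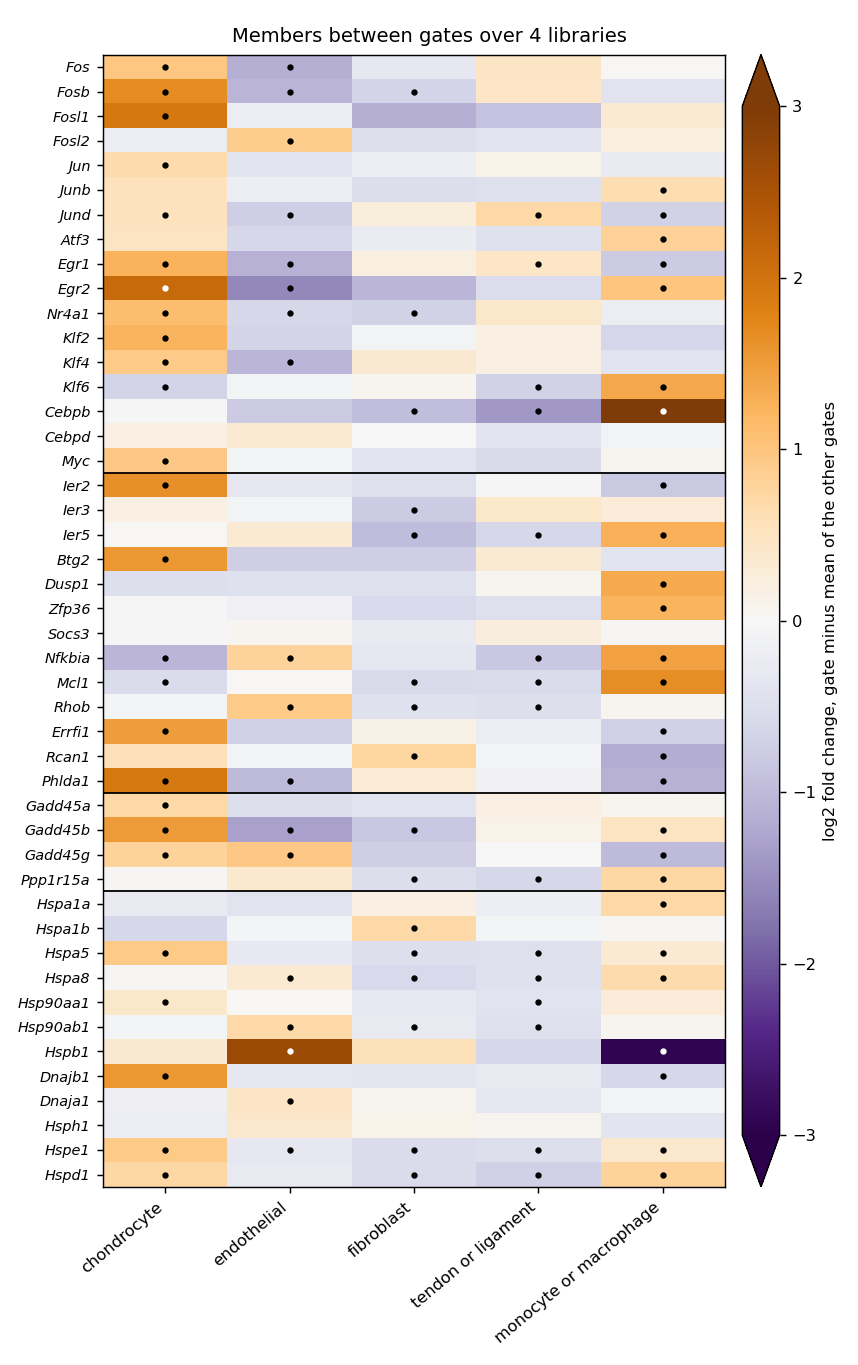
Log2 fold change of each member in a gate minus the mean of the other 4 gates over the 4 libraries, with dots at an adjusted p below 0.05. Cebpb reaches 3.14 in monocytes or macrophages, Hspb1 is 2.66 in endothelial cells and -2.92 in monocytes or macrophages, and 23 members are called higher in chondrocytes.

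Other genes of these pathways were read from lists outside the members, in chondrocytes on day 12 against day 7, beside a median log2 ratio of 0.16 over all genes, of which 20.3% were lower and 16.7% higher. The counts of the lists are to be read against these shares. Of 39 other early response genes 12 were lower and 2 higher, with a median of -0.58. Cxcl1, a neutrophil chemokine, was at 105, 76.5, 6.93 and 6.24 CPM on days 7, 8, 10 and 12 (-4.06), and Hbegf, a ligand of the epidermal growth factor receptor, at 221, 239, 22.9 and 22.8 CPM (-3.28). Arc had -3.06, and Per1, a clock gene, and the kinase Sik1 were higher (1.24 and 1.19), with Dusp4 at 0.97. Of 28 other heat shock response genes 3 were lower and 3 higher, with a median of 0.25. Among those lower were Ubb, a polyubiquitin gene, at 1789, 1982, 936 and 384 CPM (-2.22), and the small heat shock gene Hspb6 (-1.46). Dnaja2 (1.15), the collagen chaperone Serpinh1 (1.06) and Hsf2 (1.06) were higher.

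Of 18 endoplasmic reticulum stress genes 3 were lower and 1 higher, with a median of 0.47. Those lower were Chac1 (-2.98), Ddit3, which encodes CHOP (-2.39), and Trib3 (-1.31). Canx, a chaperone of glycoproteins, was higher (1.16), with Hyou1 at 0.87 and Xbp1 at 0.77. Of 17 upstream kinases and serum response factors 1 was lower, Nfkb1 (-1.17), and 4 were higher, among them Mrtfb (1.31) and Mapk14, which encodes p38 alpha (1.10), with a median of 0.69; Elk3 had -0.57 and Rela -0.30. The 4 hemoglobin genes were all higher and summed to 595, 2436, 11221 and 4321 CPM in the chondrocyte gate by day, so blood RNA moved with the days in the same cells. Its part in the differences of the members was not tested. With hemoglobin, mitochondrial and ribosomal genes left out of the total, the counts of members stayed within 1.5 times in every gate for days 12 and 7 and for days 10 and 8. Age, library, depth and handling cannot be told apart, since each day is 1 library.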

How the data were processed

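The authors deposited raw UMI counts per gene and cell barcode for 4 libraries of a 3' droplet kit, per the labels' protocols, with GRCm39 named in the submitters' processing notes; no source used here names the counting program. Barcodes held at least 500 UMIs. Cells were kept from 1000 UMIs and 500 detected genes upward if mitochondrial genes took no more than 15% of UMIs (11309, 11464, 10028 and 16254 by day). They were gated with 19 marker lists: a marker counted as on at 0.25 of its 90th percentile, a gate needed 3 markers on and a margin of 0.1. That scoring rule was set on marker genes alone after the data were seen. No doublet caller was run; an alternative left out the 10% of cells with most UMIs.

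Counts were summed per gate and library. Ratios between days used CPM with 1 UMI added to each sum, at least 20 UMIs over both libraries and a 2-fold call; folds are those of the ratio. Gates were compared with edgeR 4.0.16 in R 4.3.3 (TMM, library as a block because the gates of 1 library share a suspension), with DESeq2 1.42.0 as an alternative. Thinning used NumPy 2.4.6, and intervals SciPy 1.17.1.

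The members and lists were chosen with earlier results of these data known. Named were the 10 members with the largest ratio of day 12 to day 7 in chondrocytes, the 5 largest in other gates, up to 5 called members per gate and the 3 largest each way in the other lists, of which some genes are not reported here; genes described beyond these complete families or were chosen after their values were seen.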

Additional observations from a re-analysis of the deposited data

Results flagged for a closer look

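These genes differed between the same days in opposite directions in different gates by at least 2-fold each way. With 1 library per day the differences were not tested. Between days 12 and 7, monocytes or macrophages were higher and tendon or ligament cells lower for Fos (1.21 and -1.67 on the log2 scale), Fosb (1.17 and -1.18), Klf2 (1.11 and -1.17) and Cebpd (1.07 in monocytes or macrophages). In cells with C1q transcripts alone, whose share of the monocyte or macrophage gate was 49.9% on day 12 and 82.6% on day 7, 1 member was at least 2-fold higher, and TMM scaling gave 3 in the whole gate, against 6 without it. Over those days Cebpb was higher in endothelial cells (2.50) and lower in chondrocytes (-1.44), and Myc was higher in endothelial cells (1.25) and lower in tendon or ligament cells (-1.67). The endothelial values of day 7 rest on 5 UMIs of Cebpb and 4 of Myc.

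Between days 10 and 8, monocytes or macrophages were higher for Klf2 (1.09), Klf4 (1.74), Cebpd (1.16), Myc (1.25) and Socs3 (1.29). The lowest gates were chondrocytes for Klf2 (-1.40) and Socs3 (-1.08), and tendon or ligament cells for Klf4 (-1.07), Cebpd (-2.26) and Myc (-1.24). Between days 12 and 10, Egr2 was higher in tendon or ligament cells (1.24) and lower in endothelial cells (-1.24), and Hspa1b was higher in chondrocytes (1.41) and lower in fibroblasts (-1.77).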

How the results depend on the processing

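Of the repeats of named ratios of day 12 to day 7 and of named gate calls, none was reversed. Of other values of single genes, the Fos and Hspa1a shares given here were repeated and zone levels, other gates and other lists were not. Counts between days stayed within 1.5 times in 311 of 346 repeats. Called at 1.5-fold, day 12 against day 7 gave 1 member higher in chondrocytes, 4 in endothelial cells and 3 in fibroblasts. Day 10 against day 8 then gave 6 higher in endothelial cells, 1 in fibroblasts and 13 in monocytes or macrophages. Day 8 against day 7 gave 5, 7, 14 and 15 higher in chondrocyte, endothelial, fibroblast and tendon or ligament gates, and 1, 1 and 3 lower in endothelial, fibroblast and monocyte or macrophage gates. Day 12 against day 10 gave 7, 23, 21, 13 and 12 lower in the 5 gates and 4 higher in chondrocytes. Without the 10% of cells with most UMIs, endothelial cells had 1 higher on day 12 against day 7 and 1 on day 10 against day 8, day 12 against day 10 had 4 higher and 1 lower in chondrocytes and 0 higher in fibroblasts, and monocytes or macrophages had 0 lower on day 8. TMM scaling gave 3 higher on day 12 against day 7 in monocytes or macrophages, 1 on day 10 in endothelial cells and 0 on day 12 against day 10 in fibroblasts, as did a total without mitochondrial, ribosomal and hemoglobin genes (0). C1q cells alone, chosen after seeing the data, had 1 higher. With day 8 as baseline for day 12 endothelial cells had 1 higher, with no UMI minimum 1 lower on day 8, tendon or ligament cells of a stricter gate 1 higher on day 12 against day 10, and chondrocytes without prehypertrophic, hypertrophic and dividing cells 1 higher and 1 lower.

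Without the replicate block, which the shared suspension of the gates calls for, gate tests gave 3 higher and 5 lower in endothelial cells, 0 and 2 in fibroblasts, 1 and 4 in tendon or ligament cells and 9 and 4 in monocytes or macrophages. With no filter 5 were lower in chondrocytes, 23 in endothelial cells and 15 in monocytes or macrophages, with 5 higher and 23 lower in fibroblasts and 7 and 20 in tendon or ligament cells. Without TMM 7 were lower in chondrocytes, 4 higher and 7 lower in fibroblasts and 1 higher in tendon or ligament cells. Every barcode gave 4 higher in tendon or ligament cells, and a stricter gate 14 lower in monocytes or macrophages. Leaving out each library in turn gave 5 to 7 higher in endothelial cells, 0 to 2 higher and 8 to 10 lower in fibroblasts, 1 to 4 higher in tendon or ligament cells and 11 to 15 higher and 6 to 16 lower in monocytes or macrophages. Of repeats of named gate calls 16 lost the call and 234 kept it. Of repeats of named ratios of day 12 to day 7, 42 moved by more than their counting error with no change of direction and 138 did not. The causes were not tested.

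As a mean over cells the summed CPM of the members was 12294 and 28838 in chondrocytes on days 12 and 8, 19580, 23150, 13268 and 9461 in endothelial cells by day, 19569, 24753 and 13301 in fibroblasts on days 7, 8 and 10, 26191, 10627 and 6577 in tendon or ligament cells on days 8, 10 and 12 and 16992, 21634 and 15692 in monocytes or macrophages on days 7, 8 and 12. Thinned to 2000 UMIs, Fos was found in 89.4% and 96.9% of chondrocytes on days 10 and 8 and in 90.1% and 87.4% of monocytes or macrophages, and Hspa1a in 38% of chondrocytes on day 8 and 5.57% and 54.7% of monocytes or macrophages on days 10 and 8. Not thinned, Fos was found in 97.2% and 98.4% of chondrocytes and 97.8% and 97.2% of monocytes or macrophages, and Hspa1a in 5.63% and 51% of chondrocytes and 17.4% and 67% of monocytes or macrophages. Depth limits the endothelial gate on day 7 most, with 51 cells.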
